A study of Mus musculus with 6 samples.

Results

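The matrix metalloproteinases (Mmp genes), the ADAMTS proteases and ADAMTS-like proteins (Adamts and Adamtsl genes) and the tissue inhibitors of metalloproteinases (Timp genes) were examined in sham hearts and in hearts of tail-suspended mice. Members were chosen by gene name alone: every gene on the array whose symbol was Mmp, Timp, Adamts or Adamtsl followed by a number and, where present, 1 letter. This gave 51 genes of the 23688 with a name on the array, namely 23 Mmp, 4 Timp, 19 Adamts and 5 Adamtsl genes. They were represented by 70 of the 55681 probes, and each gene was read from its brightest probe over all arrays.

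All mice were male C57BL/6 animals, and the tissue was cardiac muscle. The tail-suspension group (3 arrays) was hung by the tail for 28 days, a model that unloads the hindlimbs and shifts body fluid towards the head to simulate microgravity, and the sham group (3 arrays) was kept in the same room with the same feeding. The sample labels state that suspension began at 10 weeks and list the age of each mouse as 11 weeks, which cannot both hold for an animal sampled after 28 days. No drug or transgene is named in the labels of either group, and nothing in the labels says whether each array stands for 1 animal or a pool, so the p-values measure the spread between these arrays.

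The extracellular matrix of the heart is a mesh of fibrillar collagen, elastic microfibrils and proteoglycans around the myocytes. Mmp genes encode zinc proteases that cut collagens, gelatins, laminin and proteoglycans, and most are secreted as inactive proenzymes that other proteases switch on. Timp proteins block the active site of these enzymes, and the ADAMTS proteases trim procollagens and cleave large proteoglycans such as versican and aggrecan. These genes are known in the myocardium for their part in the turnover of collagen after injury or changed load.

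Values below are log2 levels: the log2 of the processed intensity of a probe minus the log2 of the 75th percentile of its array, which lay between 302 and 376 intensity units. A level of 0 therefore equals the 75th percentile, and levels of different probes are not compared. The scanner software marks whether a spot is well above background, and this held for 50.9% to 53.4% of probes per array. No spot was saturated. All 6 arrays lay on 1 slide, with the 3 sham arrays and tail-suspension 1 in row 1 and tail-suspension 2 and 3 in row 2. Of the defining heart genes, 7 of 7 cardiomyocyte markers were well above background on every array, and their mean level lay between 8.70 and 8.88.

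The probes through which the 6 members past the threshold were read are given here by their opening 30 of 60 bases (5′ to 3′, lower case), with the mm9 position and strand of the whole probe, because each result below rests on 1 such probe. None of the 51 probes shared a run of 20 bases with a probe of another gene name.
Mmp3 (chr9:7455751-7455810, plus strand): ctttgtgaaaggaagtgctttgttcagcat
Mmp13 (chr9:7282762-7282821, plus strand): tcattactcaaggctatgcacactggtaga
Timp3 (chr10:85811696-85811755, plus strand): atagtgacttttggggatagatctgtctgg
Timp4 (chr6:115196120-115196179, minus strand): ccagcaaatggaggctgtggggcatgtgac
Adamts9 (chr6:92723051-92723110, minus strand): tcagcatactcagagaacgacaggagatcg
Adamtsl4 (chr3:95480135-95480194, minus strand): ccacttcacactgaaaatgatgcccacccc

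Of the 51 members, 26 were tested, because all arrays of sham, of tail-suspension or of both gave a signal well above background. The groups were compared with limma and Benjamini-Hochberg adjustment over 28030 tested probes, with a threshold of 0.05. Mmp3, Timp3, Timp4 and Adamtsl4 were higher in tail-suspended hearts, Mmp13 and Adamts9 were lower, and 20 members did not pass. Of the 26, 25 were well above background on all 6 arrays, and Mmp13 entered through the sham group alone, which in itself favours a difference. Over the 14957 genes tested, 10.5% were higher and 11.0% were lower by the same rule. The shares of 4 and 2 of 26 members stood on either side of these, and with so few members nothing can be read from them. The groups did not overlap in 7 of the 26 members and in 47.1% of all genes. The median log2 fold change of the tested members was 0.04, also with Mmp13 held at the bound given below, against -0.02 for all genes. Without adjustment, 9 of the 26 members had a limma p under 0.05, beside 5962 of the 14957 genes. For any single member, the smallest p of an exact two-sided permutation test with 3 arrays in each group is 0.1, and all 6 members past the threshold reached that value since their groups did not overlap. In whole tissue, fewer cells of a type cannot be told apart from less RNA per cell.

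**Figure D1:**
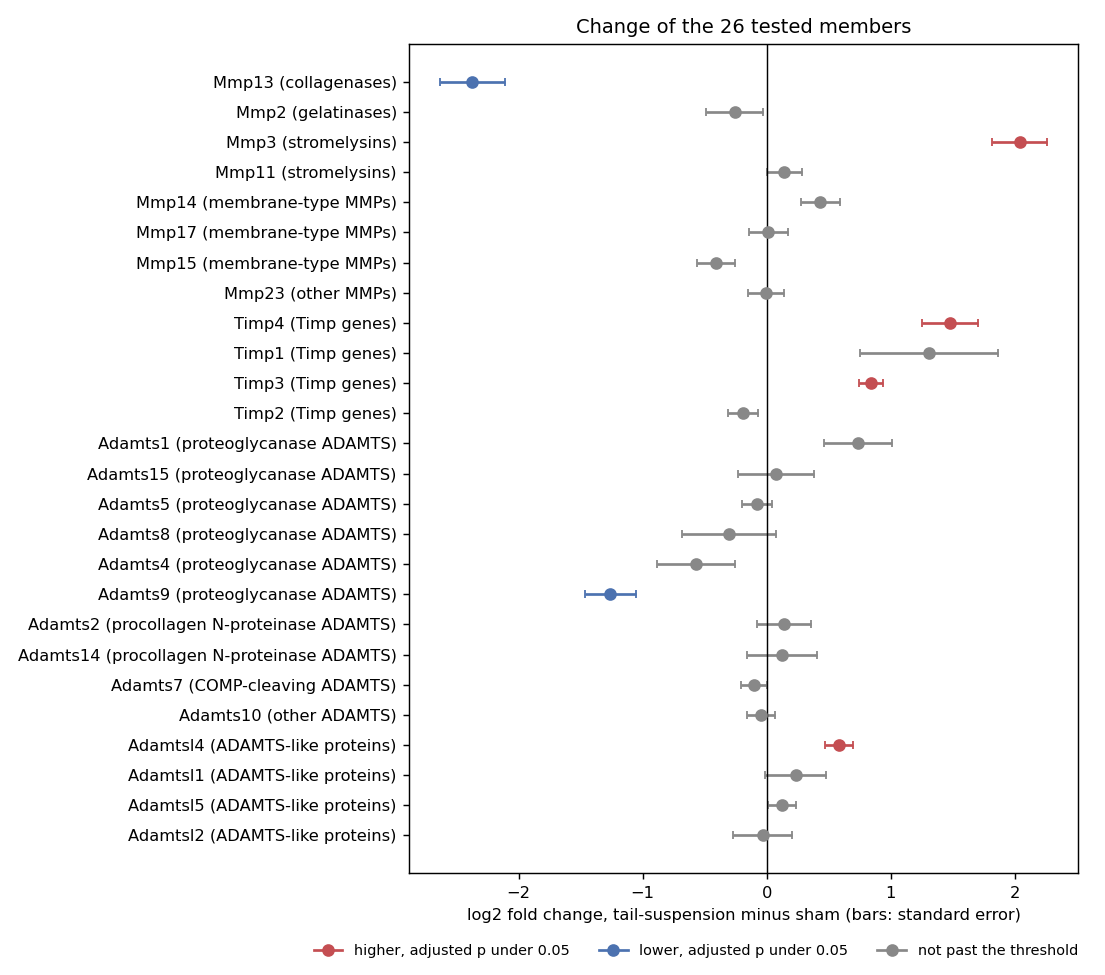
Log2 fold change (tail-suspension minus sham, horizontal axis) of the 26 tested members, grouped by role on the vertical axis, with standard errors of the limma fit as bars. The point of Mmp13 at -2.37 rests on tail-suspension signals not above background and stands for a level at least 2.07-fold lower. Mmp3 lies at 2.04, and 3 of the 4 Timp genes have a positive log2 fold change.

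Mmp3 encodes stromelysin-1, which cleaves proteoglycans, laminin and fibronectin and activates other proenzymes of the family. Its level was -0.28, -0.28 and -0.90 in sham hearts and 1.85, 1.24 and 1.55 in tail-suspended hearts. The lowest tail-suspension array was thus above the highest sham array by more than the range of either group. The mean rose from -0.49 ± 0.36 (SD, n = 3) to 1.55 ± 0.31 (SD, n = 3), a log2 fold change of 2.04 (standard error, SE, 0.22; limma adjusted p = 0.0038), or 4.10-fold. With the slide row as a block the log2 fold change was 2.34. Row 2 holds tail-suspension arrays only, so that fit compares tail-suspension 1 alone with the sham arrays. Mmp3 passed the threshold in each of 21 alternative settings, with log2 fold changes between 1.74 and 2.34.

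Mmp13 encodes collagenase-3, the main interstitial collagenase of rodents. Its level was -3.50, -3.11 and -3.57 on the sham arrays, where it was well above background each time. On the tail-suspension arrays it was -6.11, -6.00 and -5.19, and none of these was well above background. The measured means were -3.39 ± 0.25 (SD, n = 3) and -5.77 ± 0.50 (SD, n = 3), and the limma adjusted p was 0.00383. Because the signal of the tail-suspension group is known only as a bound and the probe entered the test through the sham group alone, this p does not support a size, and the level is given as at least 2.07-fold lower. That bound compares the sham mean with a floor for the dim group, which is, array by array, the lowest signal of any probe well above background or the signal of Mmp13 itself where that is higher. The fitted log2 difference depended on the background correction, at -2.37 in the main setting and -0.67 with normexp, which compresses dim signals.

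The other collagenases were dim. Mmp8 encodes neutrophil collagenase, and its level was -6.71, -6.69 and -6.61 on the sham arrays against -1.20, -4.58 and -2.01 on the tail-suspension arrays. It was well above background on no sham array and on tail-suspension 1 and 3, so it did not qualify for the test although the groups did not overlap. By the comparison described for Mmp13, its tail-suspension mean was 3.44-fold above the floor for the sham group. That mean includes tail-suspension 2, which was not well above background, so the value is not a strict bound. Mmp1a and Mmp1b, the mouse relatives of human interstitial collagenase, were not well above background on any array.

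Of the gelatinases, which degrade denatured collagen and basement membrane collagen, Mmp2 was at 1.92, 1.80 and 1.80 in sham hearts, compared with 1.56, 1.12 and 2.06 after tail-suspension. The groups overlapped, and the log2 fold change of -0.26 (SE 0.23, limma adjusted p = 0.439) did not pass. Mmp9, which neutrophils store in granules, was spotted 10 times per array. Its level was -6.20, -6.39 and -5.83 in sham and -3.87, -6.15 and -5.30 in tail-suspension, and tail-suspension 1 alone was well above background. The groups overlapped, and the gene was not tested.

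None of the relatives of Mmp3 passed the threshold. Mmp11, stromelysin-3, had a log2 fold change of 0.14 (limma adjusted p = 0.492), and its other tested probe gave 0.15. Mmp10, stromelysin-2, and Mmp7, matrilysin, were well above background on no array.

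Of the membrane-type enzymes, which work on the cell surface, Mmp14 activates the proenzyme of Mmp2. Its level was -2.29, -2.01 and -1.70 in sham and -1.56, -1.65 and -1.50 in tail-suspension, so the groups did not overlap. The log2 fold change of 0.43 (SE 0.15, limma adjusted p = 0.0908) did not pass, but did with array weights (adjusted p = 0.0375) and without sham 3 (adjusted p = 0.0378). Over all alternatives it lay between 0.17 and 0.58 on the log2 scale. Mmp15 had a log2 fold change of -0.41 (limma adjusted p = 0.0994) and Mmp17 one of 0.01. Mmp16, Mmp24 and Mmp25 were well above background on no array.

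Among the remaining Mmp genes, Mmp23 alone was tested and had a log2 fold change of -0.01. Mmp27 was at -5.82, -5.42 and -5.48 in sham and at -3.87, -4.52 and -3.64 in tail-suspension, well above background on 2 tail-suspension arrays and on no sham array. Its tail-suspension mean was 1.29-fold above the floor for the sham group. As for Mmp8, that mean includes tail-suspension 2, so it is not a strict bound, and Mmp27 was not tested. Its other probe was well above background on no array. Mmp19 lay between -6.67 and -5.59 in sham and between -5.07 and -4.65 in tail-suspension without overlap, but it was not well above background anywhere. Mmp12, the macrophage elastase, Mmp20, the tooth enamel protease enamelysin, Mmp21 and Mmp28, epilysin, were also well above background on no array.

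Mmp3, Mmp13, Mmp8 and Mmp27 belong to a cluster of 10 Mmp genes whose probes span 415 kb of chromosome 9, from position 7282762 to 7697700 of mm9. Along the chromosome the order is Mmp13, Mmp12, Mmp1b, Mmp3, Mmp1a, Mmp10, Mmp8, Mmp27, Mmp20 and Mmp7. Only Mmp3 and Mmp13 were tested, 1 higher and 1 lower in tail-suspension, while 6 of the 10 genes were well above background on no array.

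**Figure D2:**
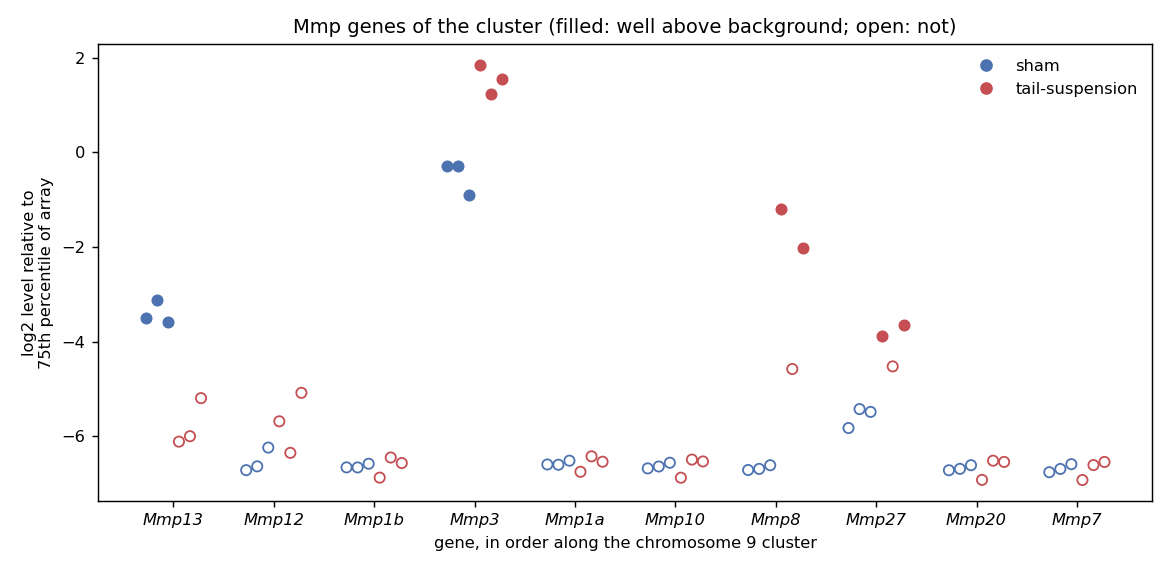
Log2 level (vertical axis, relative to the 75th percentile of the array) of the 10 Mmp genes of the chromosome 9 cluster, in chromosomal order on the horizontal axis, with 1 point per array. Filled points are well above background. Mmp3 is filled on all 6 arrays, Mmp13 on the 3 sham arrays, and Mmp8 and Mmp27 on 2 tail-suspension arrays each.

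Most proximal promoters of the cluster hold the same pair of short motifs, and those of Mmp3 and Mmp13 are shown here because the pair of tested genes changed in opposite directions. The windows reach from 250 bases before to 50 bases after the gene start (RefSeq, assembly GRCm38.p6), and 36 of the 51 members had one. The AP-1 motif TGANTCA, searched on both strands (it reads as TGANTCA on each), was found in 8 of the 36, all of them in the cluster, and in 8.97% of the 27025 windows of all genes. The letters TATAAA, on either strand, were found in 12 of the 36 windows, in 9 of the 10 cluster genes, and in 15.7% of all windows. Of the 6 members past the threshold, Mmp3 and Mmp13 held both motifs and the other 4 held neither. In the 80 bases below, capitals mark TGANTCA and then TATAAA. A match of letters is a description and not a measured binding site.
Mmp3 (chr9:7445742-7445821 of GRCm38.p6, plus strand): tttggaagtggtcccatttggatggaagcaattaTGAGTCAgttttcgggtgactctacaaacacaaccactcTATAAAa
Mmp13 (chr9:7272434-7272513 of GRCm38.p6, plus strand): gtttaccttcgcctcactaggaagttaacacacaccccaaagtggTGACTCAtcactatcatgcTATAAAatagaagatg

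The TGANTCA match began 46 bases before the RefSeq start of Mmp3 and 35 bases before that of Mmp13. The motif was also present in Mmp1a, Mmp1b, Mmp7, Mmp10, Mmp12 and Mmp20, which were well above background on no array, and absent from the windows of Mmp8 and Mmp27.

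All 4 Timp genes were well above background on every array. Timp4, the inhibitor most characteristic of heart tissue, was at 1.62, 1.85 and 2.44 in sham and at 3.65, 3.22 and 3.46 in tail-suspension. The groups were separate, and the mean rose from 1.97 ± 0.42 (SD, n = 3) to 3.44 ± 0.21 (SD, n = 3), a log2 fold change of 1.48 (SE 0.23, limma adjusted p = 0.00959) or 2.78-fold. With the slide row as a block, which compares tail-suspension 1 alone with the sham arrays, the log2 fold change was 1.68 and did not pass. The fit within row 1 makes the same comparison, and Timp4 missed the threshold there too.

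Timp3, which binds to the matrix and inhibits ADAM and ADAMTS proteases as well as Mmp enzymes, was at 4.46, 4.64 and 4.74 in sham. Its tail-suspension values of 5.50, 5.44 and 5.42 were higher and closer together. The mean rose from 4.62 ± 0.14 (SD, n = 3) to 5.46 ± 0.04 (SD, n = 3), a log2 fold change of 0.84 (SE 0.10, limma adjusted p = 0.00476) or 1.79-fold. With the slide row as a block it was 0.89 and did not pass, nor did it in the same comparison of tail-suspension 1 within row 1.

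Timp1, the inhibitor most readily induced by injury and inflammation, was at -1.22, -0.96 and -0.64 in sham. In tail-suspension it was at 0.35, -0.82 and 1.57, so arrays 1 and 3 lay above all sham arrays and array 2 lay among them. The sham mean was -0.94 ± 0.29 (SD, n = 3) and the tail-suspension mean 0.37 ± 1.19 (SD, n = 3). The log2 fold change of 1.31 (SE 0.55, limma adjusted p = 0.135) did not pass. Without tail-suspension 2 it was 1.90 and passed (limma adjusted p = 0.0263), and with array weights it was 1.63 (limma adjusted p = 0.0412), whereas without tail-suspension 3 it was 0.71 and did not pass.

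Timp2, which takes part in the activation of Mmp2 by Mmp14, was at 5.06, 4.98 and 5.07 in sham and at 4.93, 4.62 and 4.98 after suspension. This log2 fold change was -0.19 (SE 0.12, limma adjusted p = 0.275). Its other tested probe had the opposite sign, 0.32 (limma adjusted p = 0.27), and neither passed. The Timp genes thus counted 2 higher, 0 lower and 2 not past the threshold of 4, with a median log2 fold change of 1.07, against 10.5% higher and 11.0% lower among all genes. With the slide row as a block neither Timp3 nor Timp4 passed. Timp1, Timp3 and Timp4 kept a positive difference in every alternative setting, whereas the sign of Timp2 changed with the probe.

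**Figure D3:**
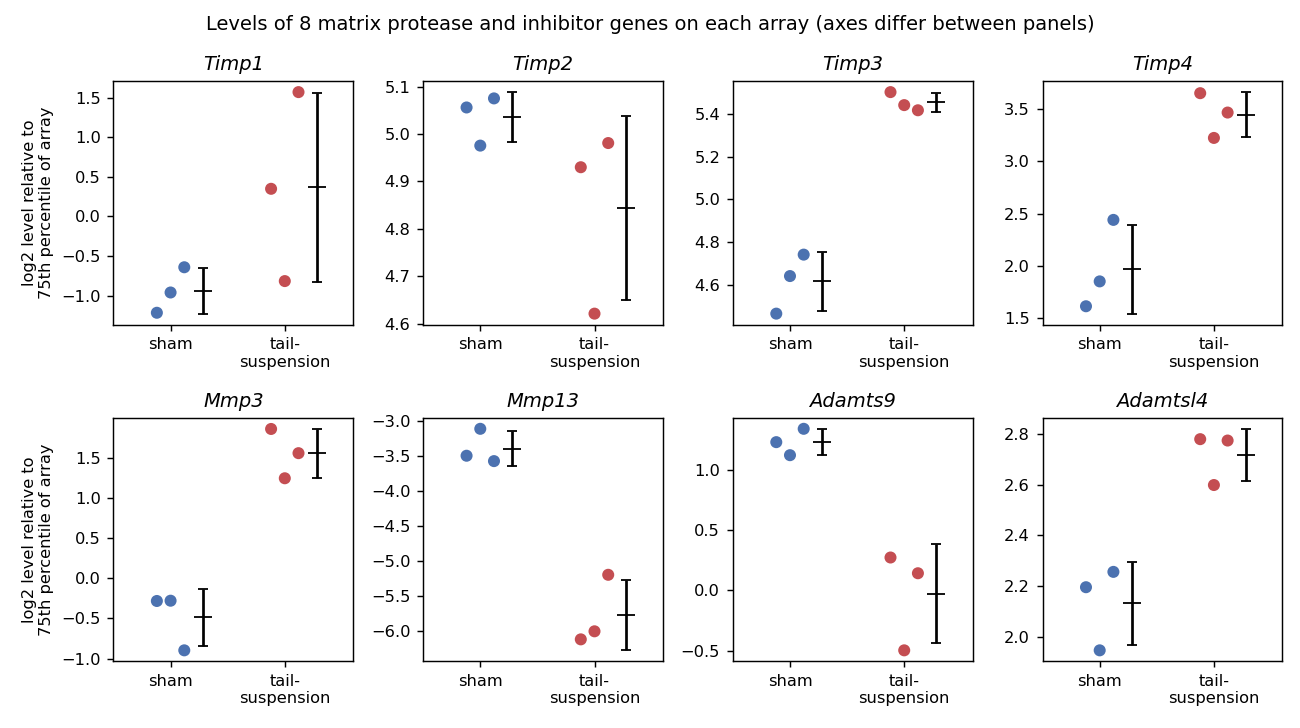
Log2 level on each array (vertical axis, relative to the 75th percentile of the array) of the 4 Timp genes and of the 4 other members past the threshold, in sham (blue) and tail-suspension (red) hearts, with the mean and SD of 3 arrays as black bars. The axes differ between panels. The groups are separate in 6 panels and overlap in those of Timp1 and Timp2.

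Of the ADAMTS proteases that cleave proteoglycans, Adamts9, which cuts versican and aggrecan, was at 1.23, 1.12 and 1.34 in sham and at 0.27, -0.50 and 0.14 in tail-suspension. All tail-suspension arrays were below all sham arrays. The mean fell from 1.23 ± 0.11 (SD, n = 3) to -0.03 ± 0.41 (SD, n = 3), a log2 fold change of -1.26 (SE 0.21, limma adjusted p = 0.0116), or 2.40-fold lower. With the slide row as a block it was -0.96 and did not pass, nor did it in the same comparison of tail-suspension 1 within row 1.

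Adamts1, of the same substrate group, had its sham values at 1.43, 1.80 and 2.43 and its tail-suspension values at 2.89, 2.31 and 2.67. Tail-suspension 2 lay below sham 3, and the log2 fold change of 0.74 (SE 0.27, limma adjusted p = 0.0985) did not pass. It did pass without sham 3 (adjusted p = 0.039), with array weights (adjusted p = 0.03) and with normexp (adjusted p = 0.035), and over all alternatives lay between 0.51 and 1.01 on the log2 scale. The rest of the group had log2 fold changes of -0.57 for Adamts4, -0.30 for Adamts8, -0.08 for Adamts5 and 0.07 for Adamts15, none past the threshold. The other tested probe of Adamts5 gave 0.27, also not past it. Adamts20 was well above background on no array.

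The enzymes that remove the amino-terminal propeptide of procollagen showed small differences. Adamts2 had a log2 fold change of 0.14 (limma adjusted p = 0.682) and Adamts14 one of 0.12, while Adamts3 was well above background on no array. Of the proteases that cleave cartilage oligomeric matrix protein, Adamts7 had a log2 fold change of -0.10 and Adamts12 was well above background on no array. Adamts13, which cleaves von Willebrand factor, was likewise well above background on no array. Adamts10, which binds fibrillin, had a log2 fold change of -0.05. Adamts6 was well above background on tail-suspension 1 alone and Adamts16 on tail-suspension 3 alone, and Adamts17, Adamts18 and Adamts19 were well above background on no array.

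ADAMTS-like proteins resemble the ancillary part of the ADAMTS enzymes but have no protease domain, and several bind microfibrils. Adamtsl4, which associates with fibrillin-1, was at 2.20, 1.95 and 2.26 in sham and at 2.78, 2.60 and 2.77 in tail-suspension. The mean rose from 2.13 ± 0.16 (SD, n = 3) to 2.72 ± 0.10 (SD, n = 3), a log2 fold change of 0.58 (SE 0.11, limma adjusted p = 0.0195) or 1.50-fold. This was the call most open to the settings. Not counting the 2-fold minimum, which a 1.50-fold change cannot reach, it was lost in 8 of 21. Among them were the slide row as a block, which rests on tail-suspension 1, and no filter (limma adjusted p = 0.068). It was also lost without sham 1 (limma adjusted p = 0.0528), sham 2 (adjusted p = 0.0647), tail-suspension 1 (adjusted p = 0.0593) or tail-suspension 3 (adjusted p = 0.0697). Adamtsl1 at 0.23, Adamtsl5 at 0.12 and Adamtsl2 at -0.03 on the scale of log2 fold changes did not pass, nor did the other tested probe of Adamtsl5 at 0.48 (limma adjusted p = 0.125), and Adamtsl3 was well above background on no array.

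The arrays of the tail-suspension group were not alike in these genes. Tail-suspension 2 had the lowest level of its group in 22 of the 26 tested members, tail-suspension 3 in 3 and tail-suspension 1 in 1. Over all tested genes, tail-suspension 2 was the lowest of its group in 40.2%. In the sham group the lowest level belonged to sham 1 in 13, sham 2 in 6 and sham 3 in 7 of the members. Over all tested genes the shares were 28.6%, 30.6% and 40.8%, so sham 1 was lowest more often among the members.

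The part that cell composition plays in these values was not tested. Neutrophils carry Mmp8 and Mmp9 in their granules, and their markers are given beside these genes. Of 10 neutrophil markers, 8 were tested. S100a8 and S100a9 were higher in tail-suspension, as were Retnlg, Ltf and Mpo, against 10.5% of all genes. The last 3 entered the test through the tail-suspension group alone, so that their calls follow in part from the filter. S100a8, a calcium-binding alarmin, had a log2 fold change of 4.80 (SE 0.65, limma adjusted p = 0.00706) and S100a9, its partner, one of 4.62 (SE 0.61, limma adjusted p = 0.00661). Retnlg, Ngp, Ltf, Mpo and Cxcr2 were well above background on no sham array, and Retnlg was at least 12.3-fold higher. Elane, which encodes neutrophil elastase, was not higher (log2 fold change -0.30, limma adjusted p = 0.0674). The mean level of the 8 tested markers was -2.01, -2.20 and -2.32 in sham and 1.76, -0.01 and 0.68 in tail-suspension. This mean includes Retnlg, Ltf and Mpo, so its gap between the groups also follows in part from the filter. The order of the tail-suspension arrays, 1 above 3 above 2, was the same for this mean, for Mmp8 and for Mmp9. It was also the order in Mmp3, Timp4, Adamts1 and Adamtsl4, so it was not particular to neutrophil genes. Tail-suspension 1 was the highest of its group in 15 of the 26 tested members, against 33.9% of all genes. Lcn2, a gene abundant in neutrophils that is described below, ran 3 above 1 above 2.

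**Figure D4:**
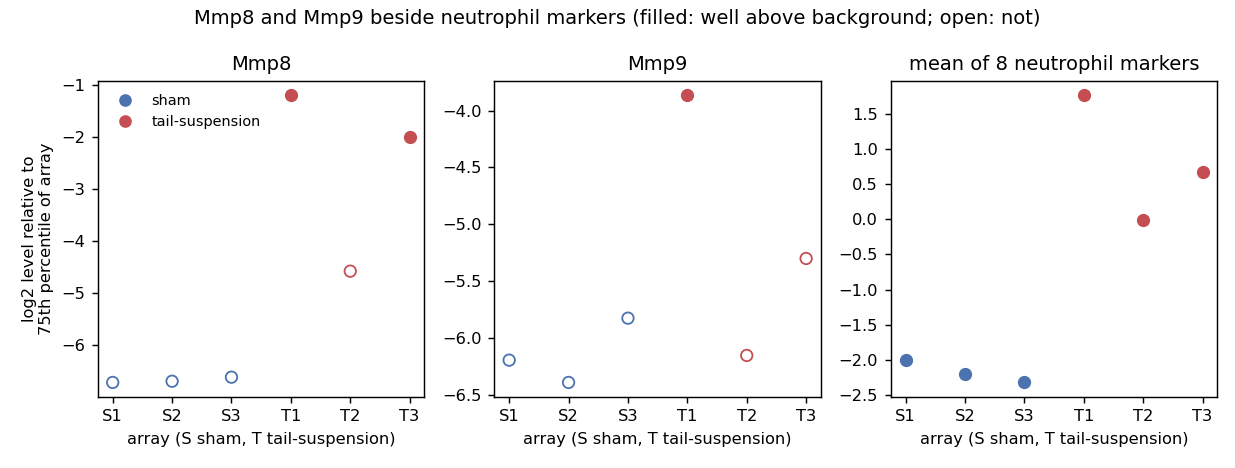
Log2 level (vertical axis, relative to the 75th percentile of the array) of Mmp8, of Mmp9 and of the mean over 8 neutrophil markers on the 3 sham arrays (S1 to S3) and the 3 tail-suspension arrays (T1 to T3). Open points were not well above background, and T1 is highest in all 3 panels. The marker mean includes Retnlg, Ltf and Mpo, tested through the tail-suspension group alone, so the filter favours its gap between the groups.

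Of the other cell types, fibroblasts make much of the cardiac matrix, and none of 7 fibroblast markers passed, with a mean level of 2.34 to 2.49 in sham and 2.11 to 2.63 in tail-suspension. Of 7 endothelial markers, Vwf (von Willebrand factor) was higher, with a log2 fold change of 0.99, and Kdr, Emcn and Tie1 were lower, with -0.55, -0.50 and -0.43. Among all genes, 10.5% were higher and 11.0% were lower. Of 7 smooth muscle and pericyte markers, Kcnj8 was lower at -0.56. Of 6 macrophage markers tested, Cd163 was at least 3.39-fold higher, being well above background on no sham array and tested through the tail-suspension group alone. The mean level of the 6 markers was -0.50 to 0.06 in sham and 0.08 to 0.74 in tail-suspension. This mean includes Cd163, so its gap between the groups follows in part from the filter. The median log2 fold change of the 6 was 0.35. Of 7 cardiomyocyte markers, Actc1, cardiac alpha-actin, was lower by a log2 fold change of -0.33. None of the 4 erythroid markers tested passed, with a mean of 3.93 to 4.79 in sham and 2.48 to 3.82 in tail-suspension, and neither did Fabp4 and Wt1, the only adipocyte and mesothelial markers tested.

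Genes that act with the members were read from lists set beside them. Of 11 tested activators and inhibitors of Mmp enzymes other than Timp genes, 3 were higher and 1 was lower, against 10.5% and 11.0% of all genes. Lcn2 encodes a lipocalin that binds the Mmp9 protein and is abundant in neutrophils, and it went from -0.51, -0.07 and -0.15 in sham to 4.10, 2.35 and 4.98 after suspension, a log2 fold change of 4.05 (SE 0.61, limma adjusted p = 0.00931). Spock2, a secreted proteoglycan of the testican family, had a log2 fold change of 2.26 (SE 0.18, limma adjusted p = 0.00231). Pcsk6, a proprotein convertase, had one of -0.56 (SE 0.10, limma adjusted p = 0.0134). Furin, the convertase that activates Mmp14, was the third gene that was higher, at 0.49. Reck, a membrane-bound Mmp inhibitor, did not pass at -0.30, and the median of the list was 0.02.

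Among substrates, the fibrillar collagens had the lowest median of the 8 lists of related genes, -0.73, against -0.02 for all genes. All 6 tested genes had a negative log2 fold change and the groups did not overlap in 5, against 47.1% of all genes. Col3a1 alone was lower past the threshold, against 11.0% of all genes. Its level was 3.55, 3.91 and 4.55 in sham and 1.96, 1.63 and 2.78 after suspension, a log2 fold change of -1.88 (SE 0.36, limma adjusted p = 0.0177). Of 12 elastin and fibrillin microfibril genes 2 were higher and 3 were lower, against 10.5% and 11.0% of all genes, with a median of 0.06. Of those past the threshold, Mfap4 at -1.15, Ltbp4 at -0.82 and Fbln5 at 0.77 changed most on the log2 scale. Neither of the 2 tested proteoglycans of the versican family passed, Vcan at -0.23 and Acan at 0.31.

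Among other protease families, 10 ADAM sheddases, relatives of the ADAMTS enzymes that release membrane proteins, held 1 higher and 2 lower genes. Over all genes tested, 10.5% were higher and 11.0% were lower, and these shares stand beside each count in this paragraph. Adam22, which has no protease activity, was higher at 1.05 (limma adjusted p = 0.0118), and Adam17 and Adam10 were lower at -0.66 (limma adjusted p = 0.0156) and -0.41 (limma adjusted p = 0.0365). Of 9 cathepsins tested, the lysosomal proteases Ctsl and Ctsh were higher at 0.93 and 0.50 and none was lower. Of the astacin proteases, which remove the carboxy-terminal propeptide of procollagen, Tll1 was lower at -0.32 and Bmp1 did not pass at -0.11. None of 4 tested genes of the plasminogen system passed by limma, with log2 fold changes between -0.29 and 0.31. An unadjusted limma p under 0.05 was found in 1 of them and in 5962 of all 14957 genes.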

How the data were processed

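Total RNA of sham and tail-suspended heart tissue was hybridised by the authors to 1-colour Agilent arrays, 3 for each group. The deposited scanner files, made with Agilent Feature Extraction 10.7.1.1, hold a mean intensity, a background intensity and a processed intensity for each spot. The authors also deposited a table of log2 values, whose columns correlated above 0.999 with the arrays and, once sorted, differed by at most 0.000713, as after quantile normalization. The paper's text names no normalization of the arrays.

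In R 4.3.3, the log2 of the 75th percentile over the 59305 non-control spots of an array was subtracted from the log2 processed intensity. Control spots and 146 to 212 outlier spots per array were left out, and spots of a probe were averaged. A probe was tested when at least 50% of its spots carried the well-above-background flag on all 3 arrays of a group. Groups were compared by lmFit and eBayes of limma 3.58.1 without covariates, with Benjamini-Hochberg adjustment over 28030 probes, and the steps were tested on simulated data. For counts over genes, each of 14957 genes was read from its brightest probe. The methods' t-test was an alternative, as were other background corrections, scalings, filters, blocks and weights, and each array left out.

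Named in full were members past the threshold, the Timp genes, Mmp2, Mmp9 and Mmp14, and members whose probes disagreed past the threshold (there was none). Further values are given for Mmp8, Mmp19, Mmp27 and Adamts1, chosen after their values were seen. From each other list, genes past the threshold were named, at most 3 by size of change. Others such as Furin, Reck, Vcan, Acan, Bmp1, Elane, Fabp4 and Wt1 were added after their values were seen. The members and lists were chosen with earlier results of these data known. Gene names are those of the array, and all 51 member names were found in the RefSeq gene table. The number of arrays limits the precision.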

Additional observations from a re-analysis of the deposited data

How the results depend on the processing

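Relative to 4 members higher and 2 lower, array weights gave 7 and 2, the methods' t-test with Benjamini-Hochberg adjusted p-values 2 and 1 (4 and 2 at its unadjusted threshold), the slide row as a block 1 and 1 (Mmp3 and Mmp13), a 2-fold minimum 2 and 2, probes well above background on all 6 arrays 4 and 1 (fewer probes tested, without Mmp13), and row 1 alone 4 and 1. Of the 4 in row 1, Mmp3 was shared with the main result, and Mmp8, Mmp9 and Mmp27, dim on all sham arrays, entered through tail-suspension 1 alone, so that the filter favours their calls; tail-suspension 1 stands alone there and is assumed to vary like the sham arrays. The fit with the slide row as a block rests on the same comparison of tail-suspension 1 with the sham arrays. With normexp the counts were 5 and 2, and with no filter 4 and 2, where Mmp27, dim on all sham arrays, replaced Adamtsl4. With each array left out, 3 to 7 members were higher (7 without tail-suspension 2, where Mmp8 and Mmp27 entered through the remaining tail-suspension arrays alone, 6 without sham 3, and 3 without any 1 of the others) and 2 to 2 lower.

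Under the methods' t-test with adjustment, Timp4 (adjusted p = 0.0531), Adamtsl4 (adjusted p = 0.0554) and Adamts9 (adjusted p = 0.057) missed the threshold. The cause of these shifts was not tested. The replicate numbers in the labels did not pair the arrays (correlations of -0.02, -0.018 and 0.05 between same-numbered arrays), and with the replicate block 4 members were higher and 2 lower, the same genes.

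No member past the threshold changed sign in any setting. Signs changed only among members that did not pass. With the row as a block and within row 1 the log2 fold change was 0.0174 for Adamts5, 0.256 for Adamts8, 0.0899 for Adamtsl2 and 0.245 for Mmp23. With the mean over the tested probes of a gene it was 0.0942 for Adamts5 and 0.0629 for Timp2. With normexp it was -0.0284 for Adamtsl1 and -0.0193 for Mmp17. With array weights it was 0.0575 for Adamtsl2 and 0.0872 for Mmp23. Quantile normalization gave -0.0075 for Mmp17 and 0.0024 for Mmp23, the authors' log2 values -0.00399 for Mmp17, and the percentile over probes well above background on all arrays 0.0011 for Mmp23. With each array left out the log2 fold change ranged from -0.13 to 0.0443 for Adamts10, -0.15 to 0.42 for Adamts14, -0.17 to 0.43 for Adamts15, -0.0679 to 0.36 for Adamts2, -0.034 to 0.42 for Adamtsl1, -0.22 to 0.22 for Adamtsl2, -0.15 to 0.11 for Mmp17 and -0.13 to 0.14 for Mmp23.

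The signal over background limits the account of 25 members that were not tested. Of these, 20 were well above background on no array, with levels between -6.94 and -4.30, where the lowest signal well above background lay between -4.60 and -4.27.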

Other observations

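Timp1, Timp3 and Timp4 lie inside the synapsin genes Syn1, Syn3 and Syn2, on the opposite strand, so the levels of these host genes were read after the Timp values had been seen. Synapsins coat synaptic vesicles of nerve terminals. Syn2, the host of Timp4, was at -0.87, -0.84 and -1.11 in sham and at 0.36, 0.91 and 0.51 after suspension by its brightest probe, a log2 fold change of 1.54 (standard error, SE, 0.16; limma adjusted p = 0.00337). Its other probe was well above background on no sham array and on all 3 tail-suspension arrays, and was at least 3.07-fold higher. That probe entered the test through the tail-suspension group alone, which in itself favours a difference. Syn3, the host of Timp3, was at -0.12, -0.21 and 0.12 in sham and at 0.76, -0.02 and 1.49 in tail-suspension by its brightest probe, which did not pass (log2 fold change 0.81, limma adjusted p = 0.144). The other Syn3 probes were not tested, being well above background on tail-suspension 1 alone or on no array. Syn1, the host of Timp1, was well above background on the 3 sham arrays and on no tail-suspension array, and its level was at least 1.88-fold lower in tail-suspension. Syn1 entered through the sham group alone, so the filter favours this difference too. The Syn and Timp probes lie on opposite strands and do not overlap.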
